A study of Mus musculus with 12 samples.

Results

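The genes described here are 9 core genes of the NF-kB pathway, picked by symbol from a fixed list: the subunit genes Nfkb1, Nfkb2, Rel, Rela and Relb, the inhibitor genes Nfkbia, Nfkbib and Nfkbie, and the feedback gene Tnfaip3. All 9 were found among the 55335 gene rows of each count table, and all 9 passed the filter on low counts in every comparison. The libraries came from thymocytes of 6-week-old mice, either wild type (WT) or miR-181a/b-1 knockout (KO, lacking a clustered pair of microRNA genes), with 3 mice per genotype. Both genotypes underwent RNA-seq and also ribosome footprinting, a method that reads the mRNA fragments that ribosomes shield from nuclease and so follows translation. Cells of both genotypes were put into 0.1 mg/ml cycloheximide, a blocker of elongation, on isolation. The labels name no strain, sex or allele, and they do not say whether the deletion is limited to some cells.

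NF-kB is a family of dimeric transcription factors. In a resting cell the dimers are held in the cytoplasm by IkB proteins. Signals from the T cell receptor or from TNF-family receptors activate the IKK kinases, which mark the IkB proteins for destruction and free the dimers to enter the nucleus. In the thymus the pathway is known for its part in the survival and selection of developing T cells and in the growth of the medullary epithelium. The microRNAs of the miR-181 family are abundant in immature thymocytes and are known to set the strength of T cell receptor signalling.

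The mature 5p strands that the deleted pair encodes are shown for reference. The deletion removes this pair of genes, and whether other genes encode the same strands was not looked at. Capitals mark the seed, bases 2 to 8, by which a microRNA pairs with its targets. Both carry the seed ACAUUCA. The sequences are RefSeq's, at chr1:137966468-137966490 and chr1:137966650-137966673 on the plus strand of GRCm38.p6, a build not stated to be the one the authors used.
miR-181a-5p: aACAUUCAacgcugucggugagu
miR-181b-5p: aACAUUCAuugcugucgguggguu

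Most of the NF-kB genes whose promoters were given shared a feature that the gene list did not use. RefSeq windows of 300 bases around the start site (GRCm38.p6) were given for 7 of the 9 genes, in 10 windows. Nfkb1 and Relb had none. Nfkb2 had several windows, some of which overlap, so that the counts of windows weigh it more than the count by gene. The loose pattern of GGG, any 5 bases and CC, searched on both strands, was in 9 of those 10 windows and in 50.8% of all 32851 windows. The narrower kappaB consensus, which is contained in that pattern and is the textbook binding motif of NF-kB, was in 7 of 10 windows against 4.51% of all. By gene it was present for 5 of 7 (Nfkb2, Rel, Nfkbia, Nfkbie and Tnfaip3) against 5.14% of 27025 genes with a window. Rela and Nfkbib had no match in their windows. Matches are shown on the strand of the gene with the 10 matched bases in capitals, and the position of the first is counted from the start site as 0. Some match on both strands or overlap a match shifted by 1 base, and 2 further matches of Nfkb2, near other start sites of that gene, are not shown. A match of letters says nothing of binding in these cells.
Nfkb2, position -39, chr19:46304689-46304716: gatcgtcacGGGAATTCCCcccctcggg
Nfkb2, position -11, chr19:46304717-46304744: gggccgaaaGGGGCTTTCCcggctggag
Rel, position -92, chr11:23771043-23771070: gtaagcagcGGGAAATCCCcccccctcc
Nfkbia, position -29, chr12:55492658-55492685: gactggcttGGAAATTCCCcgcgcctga
Nfkbie, position -106, chr17:45555585-45555612: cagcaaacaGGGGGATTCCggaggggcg
Tnfaip3, position -125, chr10:19015517-19015544: actcacgcgGGGACACCCCggggcggga
Tnfaip3, position -12, chr10:19015404-19015431: atttccatcGGAAATCCCCctgttggca

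Reads in genes numbered 4479182 to 8180286 per RNA-seq library and 4069968 to 17859770 per footprint library, the fewest in KO replicate 3 of the latter. Mir181a-1, a deleted gene, had 133 to 166 CPM in WT footprints and 0.464 to 1.04 CPM in KO footprints. CPM is the usual scaling of reads to a common library total, here after TMM scaling and computed from the deposited counts. In RNA-seq that row did not separate the genotypes, at 0.964 to 3.97 CPM in WT and 2.34 to 5.11 CPM in KO, so it checks the labels of the footprint libraries only. Mir181b-1, the other deleted gene, had no counted read in any library, WT included, and so gives no check. Directions in RNA-seq follow the labels. All 15 thymocyte markers of a fixed list, among them Cd3e, Cd4 and Rag1, were present in every group.

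The counts have a property that bears on every error given here. For the NF-kB genes, a WT library above the WT mean went with a same-numbered KO library below the KO mean by almost the same amount. The deviations had opposite signs in 27 of 27 same-numbered pairs in RNA-seq and in 26 of 27 in footprints. Nfkbia footprints show it: replicates 1, 2 and 3 had 259, 205 and 220 CPM in WT and 206, 264 and 247 CPM in KO. The spread within a genotype therefore does not stand for the spread between 3 independent mice. The deposited counts carry the name adjusted, and the labels do not say for what. Results are given from the fit of the 2 genotypes alone. That first fit treats the libraries as independent, so its SEs may be too small. For Tnfaip3 RNA the SE was 0.05, against 0.13 with the replicate number as a block. Beside each called NF-kB gene, and some others, stands the FDR from the fit with that block. The block takes out a shift shared by same-numbered libraries. Opposite deviations such as these are not taken out and stay in its error. No NF-kB gene that was not called in the first fit was called with the block.

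**Figure D1:**
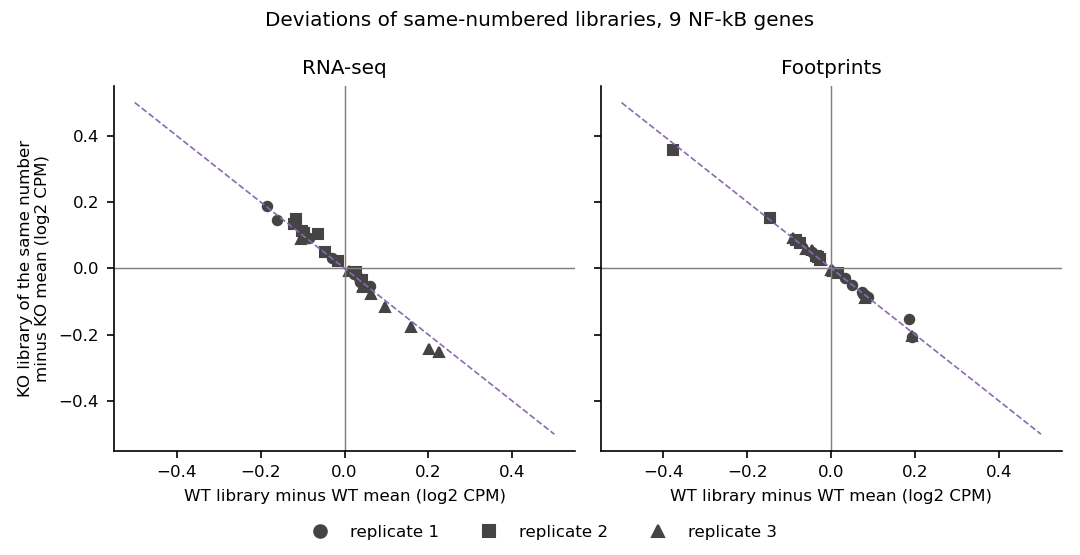
Deviation of each WT library from the WT mean (x axis, log2 CPM) against that of the KO library of the same number (y axis, log2 CPM) for the 9 NF-kB genes, in RNA-seq on the left and footprints on the right. Marker shape gives the replicate number and the dashed line marks equal and opposite deviations; the points lie along it, with 26 of 27 footprint pairs and 27 of 27 RNA-seq pairs opposite in sign.

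In footprints the 9 NF-kB genes stood higher in KO by small amounts, between 0.07 for Nfkbia and 0.26 for Relb on the log2 scale, with a median of 0.16. Over all 13509 genes tested, 48.4% were higher in KO and the median log2 fold change was -0.01. Without KO replicate 2 the median of the NF-kB genes was 0.106 and 7 of 9 were higher, and without WT replicate 2 it was 0.115 and 8 of 9 were higher. Of the NF-kB genes, Nfkb1 and Nfkb2 rose past the threshold, a Benjamini-Hochberg adjusted p (FDR) under 0.05 in edgeR's quasi-likelihood test. That is 2 of 9 called higher and 0 lower, where 17.6% of all genes were called, 9.25% as higher and 8.34% as lower. An unadjusted p under 0.05 was reached by 6 of 9, against 33.1% of all genes. With the replicate block 0 of 9 were called, and 2 of 9 (Nfkb1 and Nfkb2) had an unadjusted p under 0.05, where 16.2% of all genes had one and 3.02% were called.

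In RNA-seq the same genes did not share a direction. In the KO-labelled libraries 6 stood higher and 3 lower, between -0.25 for Nfkbib and 0.35 for Relb, with a median of 0.16 against -0.00053 over all 13652 genes tested, of which 49.9% were higher. The median was 0.0931 without KO replicate 2 and 0.105 without WT replicate 2, with 5 of 9 higher in each. Tnfaip3 rose and was the 1 gene of the 9 called, where 6.91% of all genes were called, 3.48% as higher and 3.43% as lower. An unadjusted p under 0.05 was reached by 3 of 9 (Rel, Nfkbie and Tnfaip3), against 23.8% of all genes. With the block 0 of 9 were called, against 0.806% of all genes. Tnfaip3 alone had an unadjusted p under 0.05 with the block, against 9.71% of all genes.

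**Figure D2:**
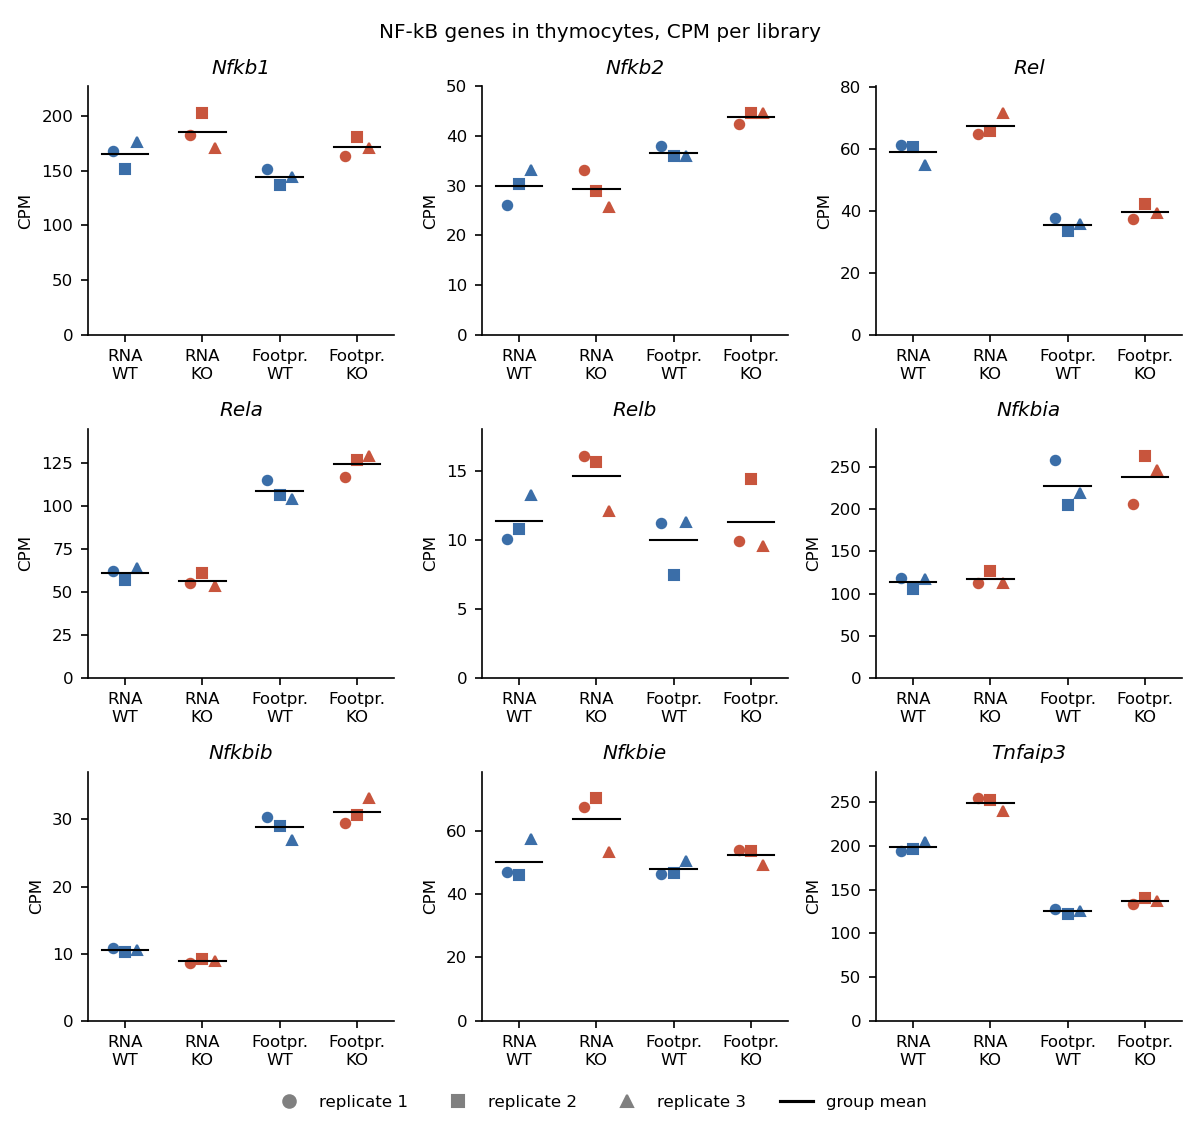
CPM (y axis, from 0) of the 9 NF-kB genes in each of the 12 libraries, by assay and genotype (x axis); marker shape gives the replicate number and the bar the group mean. Tnfaip3 RNA separates the genotypes, at 195 to 205 CPM in WT and 240 to 255 CPM in KO, and in footprints the KO values of Nfkb1, Nfkb2, Rela and Tnfaip3 lie above all WT values.

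The genes called in footprints, Nfkb1 and Nfkb2, both encode precursors, but the calls do not set them apart by size. The footprint difference was as large for Relb (0.26). Tnfaip3 and Rela missed the threshold narrowly (edgeR FDR 0.0569 and 0.0705). Nfkb1 encodes p105, which is processed to the p50 subunit. Its footprints had 152, 137 and 145 CPM in WT replicates 1, 2 and 3 and 163, 181 and 171 CPM in KO. All 3 KO libraries lay above all 3 WT libraries. The means were 145 ± 7.40 and 171 ± 8.74 CPM (SD, n = 3), and the log2 fold change was 0.25, with an SE of 0.06 (edgeR FDR 0.0290, with the block 0.204). The call was lost without WT replicate 2 or 3 or KO replicate 2 or 3, at log2 fold changes of 0.20 to 0.29 over the 6 omissions. The authors' deposited table also lists Nfkb1 as significant in footprints, at a log2 fold change of 0.24 and an adjusted p of 0.0207.

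Nfkb1 RNA overlapped between genotypes, with 168, 152 and 176 CPM in WT and 183, 203 and 171 CPM in KO. Its log2 fold change in RNA was 0.16 (SE 0.09, edgeR FDR 0.319), and 0.093 without KO replicate 2 or 0.11 without WT replicate 2. The footprint change exceeded that of RNA by 0.08 (SE 0.11), which did not pass the threshold (edgeR interaction, FDR 0.788) and ranged from 0.02 to 0.15 over the omissions of single libraries.

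Nfkb2 encodes p100, the precursor of p52 and an inhibitor of dimers that contain RelB, whose processing is the step of the noncanonical pathway. Its footprints had 38.0, 36.0 and 36.0 CPM in WT and 42.4, 44.6 and 44.7 CPM in KO, so that the genotypes did not overlap. The log2 fold change was 0.26 (SE 0.05, edgeR FDR 0.0137, with the block 0.253). Leaving out replicate 2 of either genotype or KO replicate 3 ended that call, at 0.24 to 0.29 over the omissions, and under DESeq2 (adjusted p 0.108). In the authors' deposited table Nfkb2 is not significant in footprints (adjusted p 0.105).

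Nfkb2 RNA was not called. It had 26.1, 30.3 and 33.2 CPM in WT and 33.2, 28.9 and 25.7 CPM in KO, and the libraries of both genotypes covered the same range. The log2 fold change in RNA was -0.03 (SE 0.13, edgeR FDR 0.907). The footprint change beyond RNA was 0.29 (SE 0.14), short of the threshold (edgeR interaction, FDR 0.365), and 0.19 without RNA-seq KO replicate 3.

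Rela encodes p65, the subunit with the strong activation domain in the canonical p50-p65 dimer. Its footprints had 115, 106 and 104 CPM in WT and 117, 127 and 129 CPM in KO. The KO values lay above the WT values by a narrow margin, and the log2 fold change of 0.19 (SE 0.06) was not called (edgeR FDR 0.0705, with the block 0.348). Rela RNA overlapped between the genotypes, with 62.3, 56.9 and 63.6 CPM in WT and 55.1, 60.6 and 53.4 CPM in KO, at -0.12 (SE 0.08, edgeR FDR 0.401). The footprint change beyond RNA was 0.31 (SE 0.10, edgeR interaction FDR 0.212), with an unadjusted p of 0.00960.

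Rel encodes c-Rel, a subunit known in lymphocyte activation and in regulatory T cell development. Its RNA ranged from 54.8 to 61.5 CPM in WT and from 65.1 to 71.9 CPM in KO, with no overlap. The log2 fold change of 0.20 (SE 0.07) was not called (edgeR FDR 0.161, with the block 0.749). Rel footprints overlapped by the narrowest of margins, the highest WT library at 37.7 CPM and the lowest KO library at 37.6 CPM, at 0.16 (SE 0.07, edgeR FDR 0.149), or 0.10 without KO replicate 2.

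Relb encodes the partner of p52 in the noncanonical pathway and rested on few reads, 63 to 110 per RNA-seq library and 39 to 221 per footprint library. Its log2 fold changes were 0.35 (SE 0.16, edgeR FDR 0.245) in RNA-seq and 0.26 (SE 0.22, edgeR FDR 0.474) in footprints. The genotypes overlapped in both assays. The footprint difference was 0.07 without WT replicate 2, -0.01 without KO replicate 2 and 0.39 without KO replicate 1.

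The inhibitors showed no called change in either assay. Nfkbia encodes IkB-alpha, the inhibitor that is degraded and then remade within a signalling cycle. Its RNA ranged from 106 to 118 CPM in WT and from 113 to 127 CPM in KO, a log2 difference of 0.04 (SE 0.08, edgeR FDR 0.791). The footprint values given above had means of 228 ± 28.0 and 239 ± 29.8 CPM (SD, n = 3), at 0.07 (SE 0.12, edgeR FDR 0.748). The sign of the difference turned without replicate 2 of either genotype, in both assays.

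Nfkbie encodes IkB-epsilon, an inhibitor that acts on dimers with p65 and c-Rel. Its RNA had 47.1, 46.0 and 57.4 CPM in WT and 67.6, 70.3 and 53.5 CPM in KO. KO replicate 3 fell among the WT values and WT replicate 3 was the highest of its group. The log2 fold change was 0.34 (SE 0.13, edgeR FDR 0.194, with the block 0.564). In footprints it was 0.14 (SE 0.06, edgeR FDR 0.129), from 46.3 to 50.6 CPM in WT and 49.1 to 54.1 CPM in KO.

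Nfkbib encodes IkB-beta, an inhibitor known to be replaced more slowly than IkB-alpha. Its RNA had 10.8, 10.2 and 10.6 CPM in WT and 8.63, 9.23 and 8.86 CPM in KO, from 39 to 77 reads per library. The genotypes did not overlap and KO was lower, at -0.25 (edgeR FDR 0.292, with the block 0.805). The SD within WT was 0.321 CPM, where counting error alone would give 1.24 CPM. The spread between these libraries is thus too small to serve as an error for this gene. Nfkbib footprints ranged from 27.0 to 30.3 CPM in WT and from 29.4 to 33.1 CPM in KO, at 0.09 (SE 0.07, edgeR FDR 0.424), or 0.05 without WT replicate 3. Over the NF-kB genes the SD within a group was below counting error in 9 of 36 combinations of gene and group.

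Tnfaip3 encodes A20, a ubiquitin-editing enzyme that NF-kB induces and that shuts off signalling upstream of the IKK kinases. Its RNA had 195, 197 and 205 CPM in WT replicates 1, 2 and 3 and 255, 253 and 240 CPM in the KO-labelled replicates. The lowest KO library exceeded the highest WT library by more than the range within either group. The means were 199 ± 5.35 and 249 ± 7.91 CPM (SD, n = 3), and the log2 fold change was 0.33 with an SE of 0.05 (edgeR FDR 0.0215). With the block the estimate was the same at 0.33 with a wider SE of 0.13, and the call was lost (FDR 0.418). Leaving out any single library of the 6 (WT or KO replicate 1, 2 or 3) ended the call as well, at 0.30 to 0.35 and edgeR FDR 0.0577 to 0.103. It held under DESeq2 (adjusted p 0.0268), and the authors' deposited table lists Tnfaip3 as a significant rise in RNA-seq at 0.31 (adjusted p 0.00651).

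The difference in Tnfaip3 footprints was smaller. They had 128, 123 and 125 CPM in WT and 134, 140 and 137 CPM in KO. The genotypes did not overlap, at 0.13 (SE 0.04), and the gene was not called (edgeR FDR 0.0569, with the block 0.507). The footprint change fell short of that in RNA by an interaction of -0.20 (SE 0.07, edgeR FDR 0.237, unadjusted p 0.0137).

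Groups without overlap were thus found for 3 of the 9 genes in RNA-seq (Rel and Tnfaip3 higher, Nfkbib lower), where 30.9% of all genes had none, 15.5% with KO higher and 15.4% with KO lower. In footprints they were found for 4 of 9 (Nfkb1, Nfkb2, Rela and Tnfaip3), each higher in KO, where 38.1% of all genes had none, 18.5% with KO higher and 19.6% with KO lower. These shares of all genes are high in both assays, and the mirrored deviations enter them too.

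**Figure D3:**
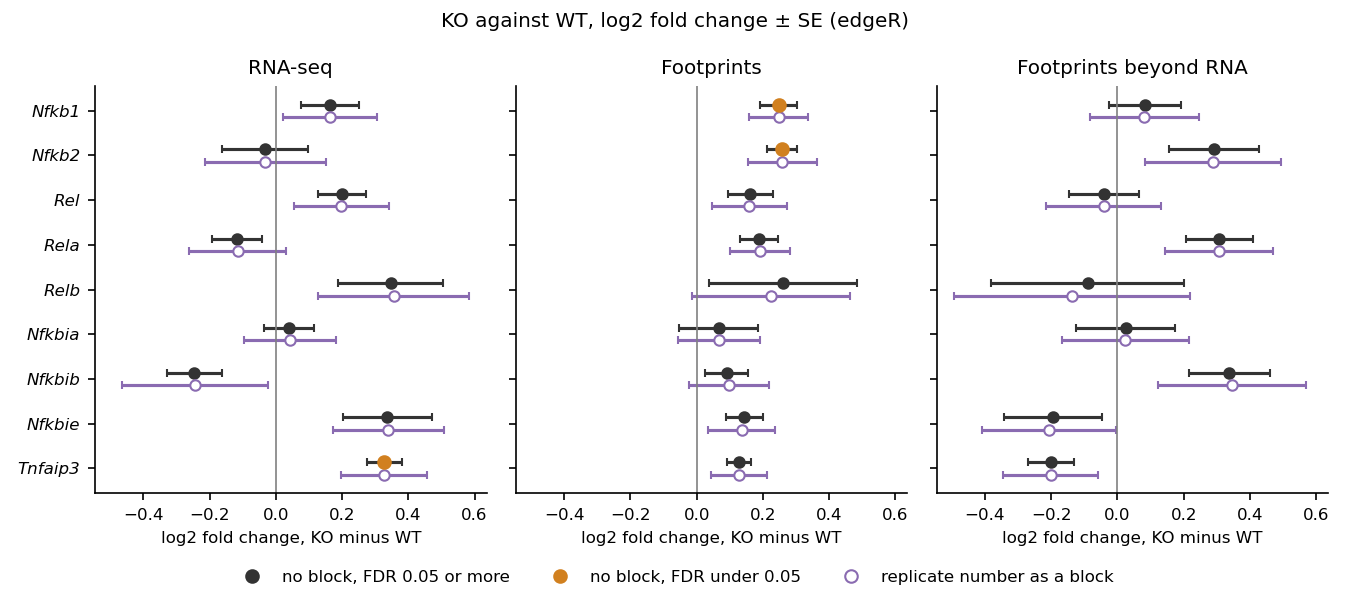
Log2 fold change, KO minus WT (x axis), of the 9 NF-kB genes in RNA-seq, in footprints and in footprints beyond RNA, with bars of 1 SE from edgeR. Filled points are the fits without a block, orange where the FDR was under 0.05 (Tnfaip3 in RNA-seq, Nfkb1 and Nfkb2 in footprints). Open points are the fits with the replicate number as a block, whose estimates stayed close while every SE was larger.

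For translation, meaning how far footprints changed more than RNA, none of the 9 NF-kB genes was called (0 of 9, edgeR interaction, and 0 of 9 under DESeq2). At an unadjusted p under 0.05 lay 3 of 9, Rela and Nfkbib with a positive and Tnfaip3 with a negative interaction, where 14% of all 11854 genes had such a p and 0.211% were called, 0.135% with a positive and 0.0759% with a negative interaction. With the block within each assay 0 of 9 had an unadjusted p under 0.05, against 3.28% of all genes, and 0 of 9 were called, against 0.0169%. The estimates ran from -0.20 for Tnfaip3 to 0.34 for Nfkbib. The direction of the small interactions of Rel, Relb and Nfkbia turned under the omission of single libraries.

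Within a genotype the NF-kB genes differed widely in footprints relative to RNA. The log2 ratio of footprints to RNA was the mean log2 CPM of footprints minus that of RNA. It was set against the median gene, since the libraries of each assay have their own totals. RNA reads can fall anywhere in an mRNA and footprints mostly in its coding part, so the ratio also moves with the length of the untranslated parts. In WT the inhibitors Nfkbib and Nfkbia stood at 1.60 and 1.18 above the median gene on the log2 scale, at the 90.3 and 83.0 percentile of 11854 genes. Rela was at 1.01 (79.3 percentile) and Nfkb2 at 0.48 (64.8 percentile). Nfkb1, Relb and Nfkbie lay near the median, and Rel and Tnfaip3 below it at -0.53 and -0.47 (33.2 and 34.8 percentile).

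The order was much the same in KO. Nfkbib stood at 1.90, Rela at 1.29, Nfkbia at 1.17 and Nfkb2 at 0.74, while Tnfaip3 was at -0.71 and Rel at -0.60. Rela passed Nfkbia in this order, and Tnfaip3 passed Rel at its lower end. Near the median Nfkb1, at 0.05 in KO, passed Nfkbie and Relb, at -0.12 and -0.22. None of these shifts between genotypes was called in the interaction test above.

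**Figure D4:**
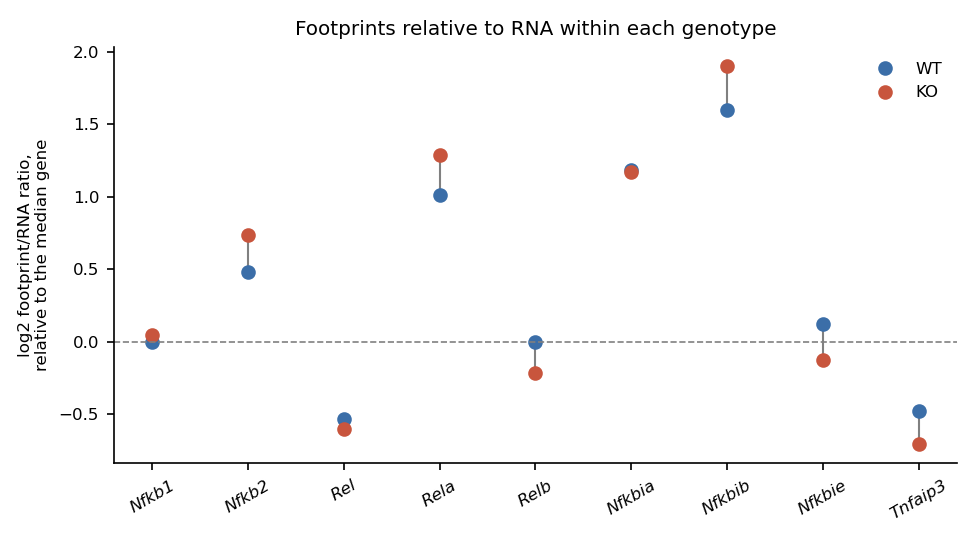
Log2 ratio of footprints to RNA for each of the 9 NF-kB genes (x axis), relative to the median of 11854 genes in the same genotype (y axis, dashed line at the median), in WT and in KO. Nfkbib, Nfkbia and Rela lie more than 1 log2 unit above the median in both genotypes, and Rel and Tnfaip3 lie below it.

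The genes that feed the pathway were described from fixed lists. Over all genes, 9.25% were called higher and 8.34% lower in footprints, and 3.48% and 3.43% in RNA-seq. With the block the shares called were 3.02% in footprints and 0.806% in RNA-seq. The counts of this and the following lists were not tested against these shares. Of 17 genes of signalling adaptors and of the TAK1 and IKK kinases, 4 were called higher and 1 lower in footprints, and 1 higher in RNA-seq, Ripk1 (0.38, edgeR FDR 0.0225), a call lost without any 1 library. None was called with the block. Their median log2 fold change was 0.08 in footprints and 0.04 in RNA-seq. Map3k14, the NIK kinase that starts Nfkb2 processing, rose by 0.37 (edgeR FDR 0.00607, with the block 0.167). Ikbke, an IKK-related kinase, fell by -0.33 (edgeR FDR 0.00622, with the block 0.117). Tab1, an adaptor of TAK1, rose by 0.21, a call lost without WT replicate 2 or any 1 KO replicate (edgeR FDR 0.0154, with the block 0.342). Bcl10, an adaptor of antigen receptor signalling, rose by 0.20 (edgeR FDR 0.0238, with the block 0.395), a call lost without any 1 library. Tab3, another adaptor of TAK1, rose by 0.33 (edgeR FDR 0.0382, with the block 0.347). It is named after its value was seen and was not refitted without single libraries.

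Of 15 other inhibitors, 4 were called higher and 0 lower in footprints and 0 in RNA-seq, and none with the block. Nfkbid and Nfkbiz, atypical IkB proteins that act in the nucleus, rose by 0.51 (edgeR FDR 0.0253) and 0.45 (edgeR FDR 0.0244). Both calls were lost without replicate 2 of either genotype or WT replicate 3, and that of Nfkbiz also without KO replicate 3. Otud7b and Nlrc3 rose by 0.28 and 0.17, calls lost without replicate 2 of either genotype for the first and without any 1 library for the second. Cyld, a deubiquitinase that miR-181b is known to target in other cells, averaged 111 ± 5.98 CPM in WT footprints and 96.1 ± 5.53 CPM in those of KO (SD, n = 3), at -0.20 (SE 0.06, edgeR FDR 0.0616). Its RNA was also lower, at -0.15 (edgeR FDR 0.235).

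Of 21 receptors, ligands and TRAF or cIAP adaptors, 1 was called higher and 1 lower in footprints. Ltb, which encodes lymphotoxin beta, a ligand that triggers the noncanonical pathway in stromal cells, rose from 107 ± 11.4 to 260 ± 27.2 CPM (SD, n = 3). The log2 fold change was 1.27 with an SE of 0.10 (edgeR FDR 0.00107), called with the block too (FDR 0.000255) and without any 1 of the 6 libraries. Ltb RNA went from 67.8 ± 11.8 to 103 ± 20.5 CPM (SD, n = 3) with overlap, at 0.59 (SE 0.18, edgeR FDR 0.111). The difference between the assays was not called (edgeR interaction 0.68, FDR 0.188). Tnfrsf11a, which encodes the receptor RANK, fell in both assays from under 5 CPM (log2 fold changes -0.78 and -0.88), calls lost with the block and, in RNA-seq, without any 1 library. In footprints the Tnfrsf11a call was kept only without KO replicate 2.

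Of 10 import factors and co-factors, Kpna1 rose by 0.27 and Kpna6 fell by -0.31 in footprints (edgeR FDR 0.00640 and 0.0109, with the block 0.145 and 0.115). Both encode importin alpha adaptors. Kpna4, which encodes the importin that miR-181b is known to target in endothelial cells, averaged 240.7 ± 7.95 CPM in WT footprints and 240.4 ± 8.66 CPM in those of KO (SD, n = 3). Its log2 fold change of 0.00 (SE 0.04, edgeR FDR 0.989) changed sign with the block, with no filter on low counts and without WT or KO replicate 1 or 2. In RNA-seq it was 0.20 (SE 0.12, edgeR FDR 0.375), or 0.10 without replicate 3 of either genotype.

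Of 23 textbook target genes, 19 were tested in footprints, where 3 were called higher and 2 lower at a median of -0.05. In RNA-seq 17 were tested, with 1 called higher and 1 lower at a median of -0.13. Il2ra, the alpha chain of the interleukin 2 receptor, rose in both: from 53.1 ± 4.94 to 95.5 ± 8.05 CPM in RNA-seq (SD, n = 3), at 0.85 (SE 0.10, edgeR FDR 0.00675, with the block 0.0198), and by 0.38 in footprints (SE 0.03, edgeR FDR 0.00159, with the block 0.0446). Ccr7, a chemokine receptor of maturing thymocytes, fell in RNA-seq by -0.64 (edgeR FDR 0.00621, with the block 0.110) and not past the threshold in footprints (-0.10, edgeR FDR 0.309). In footprints Cflar and Sod2 rose by 0.28 and 0.20, and Myc and Fas fell by -0.19 and -0.27, all without a call with the block. The Cflar call was lost without KO replicate 2, that of Myc without KO replicate 1, and that of Fas without any 1 KO replicate. Sod2 is named after its value was seen and was not refitted without single libraries.

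**Figure D5:**
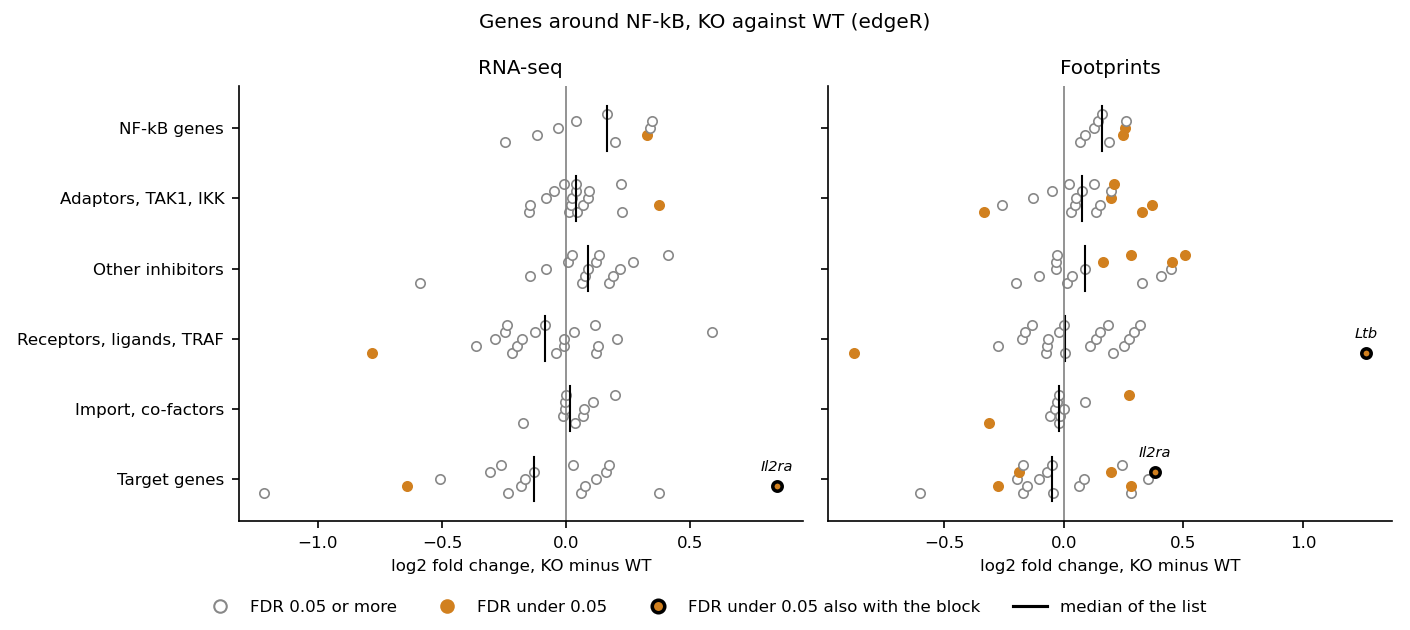
Log2 fold change, KO minus WT (x axis), in RNA-seq and in footprints for the 9 NF-kB genes and for 5 lists of genes around them (rows), 1 point per gene tested and a bar at the list's median. Orange points had an edgeR FDR under 0.05 and a black rim marks those called with the replicate block as well: Ltb in footprints and Il2ra in both assays.

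Some genes of other cells and of recent stimulation differed between the genotypes beside these results. Over all genes, 9.25% were called higher and 8.34% lower in footprints, and 3.02% were called with the block. In footprints the summed CPM was 340 to 402 in WT and 280 to 342 in KO for 13 markers of myeloid and dendritic cells, of which Siglech and Mpeg1 were called lower, both with the block too. It was 427 to 578 and 444 to 610 for 10 markers of B cells, of which Blk and Cd79b were called higher, the second with the block too. For 10 markers of thymic epithelium it was 181 to 256 and 182 to 264, with 2 called lower. For 7 erythroid markers it was 40.8 to 76.4 and 35.1 to 75.1, with 1 called lower, and for 9 markers of stroma and endothelium 251 to 298 and 284 to 343, with 2 called higher. None of these markers was at 0 in a footprint group.

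In RNA-seq, where 3.48% of all genes were called higher and 3.43% lower, the sums of 3 lists did not overlap between the genotypes. Erythroid markers had 76.7 to 91.8 CPM in WT against 46.6 to 58.9 in KO, with Hbb-bs called lower. Thymic epithelium had 68.0 to 79.0 against 56.3 to 64.2, with Krt5 called lower. Stroma and endothelium had 219 to 224 against 248 to 259, with Pecam1 and Pdgfrb called higher. Most of that last sum was Pecam1, which averaged 171 CPM for WT and 203 for KO. The 4 tested markers without a call, Col1a1, Dcn, Col1a2 and Col3a1, went the other way, at -0.43, -0.50, -0.30 and -0.06. The median log2 fold change of the 6 stromal and endothelial markers tested was -0.18. Myeloid and dendritic markers had 105 to 123 against 88.3 to 107, with Siglech called lower, and B cell markers 255 to 304 against 304 to 363, with none of 10 called (edgeR). None of these RNA-seq calls held with the block.

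Some thymocyte markers also differed. Their footprints summed to 28036 to 29578 CPM in WT and 27946 to 29499 CPM in KO. Of the 15, 3 were called higher and 3 lower, against 9.25% and 8.34% of all genes. Cd4, a coreceptor, rose by 0.57 (edgeR FDR 0.00335, with the block 0.0121), and Cd2 and Themis rose by 0.24 and 0.23 without a call with the block. Rag1, Ptcra and Lck fell by -0.30, -0.37 and -0.12, also without a call with the block. In RNA-seq the sums were 17379 to 19147 CPM and 16523 to 17857 CPM, and Tcf7 fell by -0.26 (edgeR FDR 0.0477, with the block 0.563). The marker genes were named after their values were seen and were not refitted without single libraries.

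Of 15 immediate early genes tested in footprints, 6 were called higher and 2 lower, against 9.25% and 8.34% of all genes. Their sum ranged over 815 to 976 CPM in WT and 965 to 1158 CPM in KO, and Jund had no counted read in any group. With the block 3 of these calls held, Klf6, Nr4a1 and Egr1, where 3.02% of all genes were called. All 3 were called higher. Their RNA was not called, at 0.30, 0.01 and 0.26 (edgeR FDR 0.113, 0.978 and 0.289). The 2 genes called lower in footprints were Jun at -0.69 and Dusp1 at -0.51 (edgeR FDR 0.00474 and 0.0164, with the block 0.0755 and 0.149). In RNA-seq 1 of 14 was called, Klf2, which fell by -0.82 (edgeR FDR 0.0223, with the block 0.141). Klf6, Nr4a1, Egr1, Jun, Dusp1 and Klf2 were named after their values were seen and were not refitted without single libraries. The part of these genes and cells in the changes of NF-kB genes was not tested. In such bulk samples fewer cells of a type and less RNA per cell cannot be told apart.

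Genes with the most similar profile to a NF-kB gene were sought among 8100 genes, for Nfkbia, Nfkb1 and Tnfaip3, the 3 with most footprint reads. The measure was the lower of the 2 Pearson correlations over the 6 libraries of each assay. For Tnfaip3 these were Dgkd (0.994 in RNA-seq, 0.997 in footprints) and Scml4 (0.983 and 0.989). For Nfkb1 they were Mxd4 (0.988 and 0.998) and Fam102a (0.981 and 0.997), and for Nfkbia Bcl11b (0.990 and 0.952) and Rpusd4 (0.952 and 0.982). These describe 6 libraries per assay, which the genes share and whose deviations mirror each other, and how high such values run for other genes was not tested.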

How the data were processed

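The authors deposited integer read counts by Ensembl gene for each assay, under the name adjusted. For what they were adjusted, and with which build, annotation and strandedness, is not given in the sources used here. Per the submitters' processing notes, FastQC, STAR 2.7.10a, Bowtie2 2.5.1, HTSeq 2.0.3 and DESeq2 1.40.2 were used, with no roles stated. Per the file headers, 5 rows hold reads outside genes, ambiguous or with several alignments; they were left out, and genes held 27.0% to 28.5% of reads in RNA-seq and 72.3% to 73.1% in footprints. Of the authors' deposited comparison tables, 12 columns of per-library values were not used.

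Each assay was fitted with edgeR 4.0.16 in R 4.3.3: TMM scaling, filterByExpr (minimum count 10), then quasi-likelihood tests for KO versus WT across all genes. For translation the genotype-by-assay interaction was fitted to the 12 libraries, with TMM within each assay. An SE is the log2 fold change divided by the root of the F statistic. The fits were tested on simulated data: directions and sizes of the changes were recovered, while the share of changed genes called in RNA-seq missed a first pass mark, which was then lowered. The simulated libraries were drawn independently, without the mirrored deviations of the real counts. That test therefore does not bear on the errors given here. Ratios and likeness used log2(CPM + 0.5), and genes for likeness an average log2 CPM of at least 3 in both assays.

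Other settings tried were DESeq2 1.42.0, a replicate block, RLE scaling, all genes without a count filter, a joint fit and the omission of each library. Promoter and microRNA sequences are RefSeq's. From each pathway list up to 4 called genes per comparison were named, smallest FDR first, and Cyld and Kpna4 whatever their values. One gene each of the list of adaptors and kinases and of the erythroid markers was left out and is not reported here. The members, lists and rules were chosen with earlier results of these data known. The per-mouse origin of RNA-seq and footprint libraries is not stated. The p-values rest on the spread between these libraries together with counting error and the spread of other genes. They do not measure a known spread between mice.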

Additional observations from a re-analysis of the deposited data

Results flagged for a closer look

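Egr3, an immediate early transcription factor named after its values were seen, had a KO effect in footprints that exceeded that in RNA-seq by 1.09 on the log2 scale (edgeR interaction, SE 0.18, FDR 0.0294), a difference between the assays in the test of the interaction itself. Its footprints went from 2.78 ± 0.322 to 5.63 ± 0.637 CPM and its RNA from 11.0 ± 0.774 to 10.2 ± 0.768 CPM (SD, n = 3). The interaction call was lost with the replicate block within each assay (FDR 0.998), under DESeq2 (adjusted p 0.0535) and without any 1 of the 12 libraries (FDR 0.0519 to 0.124). No NF-kB gene had such a difference past the threshold.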

How the results depend on the processing

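Same-numbered WT and KO libraries deviated in opposite directions (correlations of -0.99 to -0.98 over 5714 genes in RNA-seq and -0.99 over 5330 in footprints, across genes), so the numbers tie libraries without pairing them in 1 direction. With the replicate block 110 genes were called against 943 in RNA-seq, 408 against 2376 in footprints and 2 against 25 for translation, and 0 NF-kB genes in each. DESeq2 called 532, 1235 and 54 genes, 1 NF-kB gene in RNA-seq (Tnfaip3) and 1 in footprints (Nfkb1). The joint fit of 12 libraries called 1561 in RNA-seq and left 1 NF-kB gene in footprints (Nfkb1). The cause was not tested. RLE scaling, or testing without a count filter, kept the counts of calls within 1.5 times.

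With 1 library left out, 215 to 323 genes were called in RNA-seq, 1035 to 1554 in footprints and 6 to 24 for translation, and 0 to 0, 0 to 2 and 0 to 0 NF-kB genes; fewer libraries lower such counts by construction. Signs turned for 8 values, whose ranges over the omissions were -0.14 to 0.059 for Nfkb2 and -0.018 to 0.071 for Nfkbia in RNA-seq, -0.012 to 0.39 for Relb, -0.021 to 0.17 for Nfkbia and -0.021 to 0.031 for Kpna4 in footprints, and -0.099 to 0.0078 for Rel, -0.36 to 0.032 for Relb and -0.060 to 0.13 for Nfkbia in translation. Kpna4 in footprints was -0.0032 with no filter and -0.00029 with the block. Depth limits Relb and Nfkbib most, with under 120 reads in each RNA-seq library.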

Other observations

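Genes that carry the kappaB consensus in a RefSeq promoter window were set beside the other genes with a window, a comparison chosen after the motif counts of the NF-kB genes were seen. In footprints 68 of 589 such genes were called higher and 59 lower in KO (edgeR, 21.6% in all), against 18.2% of 8879 genes without the motif. Their median log2 fold change was -0.02, against -0.01. In RNA-seq 16 of 544 were called higher and 29 lower (8.27%), against 6.81% of 8496, at medians of -0.0037 and -0.0067. With the replicate block 21 (3.57%) and 263 (2.96%) were called in footprints, and 8 (1.47%) and 51 (0.6%) in RNA-seq. No test was made of these shares, and the medians lie near 0 in both sets.

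The consensus was in a window of 5 of the 11 other inhibitors that had one (Nfkbid, Bcl3, Tnip1, Cyld and Tax1bp1) and of 7 of 19 textbook targets (Bcl2l1, Il2ra, Irf1, Cxcl10, Sod2, Ier3 and Stat5a), against 2 of 13 adaptors and kinases and 0 of 5 import factors and co-factors. Among receptors and ligands it was in 3 of 19 (Ltb, Tnfrsf9 and Traf3).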
